A study of Mus musculus with 2 samples.

Results

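Chemokines are small secreted proteins that draw leukocytes along a gradient, and they are named after the spacing of the cysteines near their N terminus. CC ligands have these cysteines side by side and act mainly on monocytes, lymphocytes and eosinophils through CCR receptors, while CXC ligands have a residue between them and act through CXCR receptors. Neutrophils respond to chemokines through Cxcr2 and also release them, which recruits further neutrophils and monocytes. The genes followed here are 10 chemokine ligands of the mouse, of 38 ligand genes looked up in all and of 55536 Ensembl genes measured. The 10 were chosen by symbol, with earlier results of these data known. They are the CXC genes Cxcl1, Cxcl2, Cxcl3, Cxcl10 and Cxcl16 and the CC genes Ccl2, Ccl3, Ccl4, Ccl5 and Ccl6.

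RNA came from neutrophils of the spleen of adult B6CASTF1/J males aged 65 days, an F1 cross with C57BL/6 as mother and CAST/EiJ as father. Total RNA, 300 ng for each library and with ERCC spike-in RNA, was sequenced with a directional kit. There is 1 group with 2 libraries, called replicate 1 and replicate 2, and no treated, mutant or control group. Both carry the same donor identifier, so separate animals are not shown and the spread between the libraries may be technical. Levels are TPM (a level per transcript length, scaled to the same total in each library) from the gene table in RSEM layout, unless the kallisto layout is named. The depth was 18387963 expected counts for replicate 1 and 18090108 for replicate 2.

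The neutrophil label was matched by its markers, since all 11 genes of the neutrophil list stood above 1 TPM in both libraries, with a summed level of 38131 TPM for replicate 1 and 75829 TPM for replicate 2. Protein-coding genes held 32.8% of all TPM of replicate 1 and 45.4% of that of replicate 2, and the 7SL RNA genes held 43.8% and 31.6% in that order. A TPM difference between these libraries therefore holds this shift as well as any difference in the gene, and the libraries are compared below on counts with TMM scaling.

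The cysteine spacing that divides the members is shown first in their coding sequence. Each line, for 9 of the 10 members, is a window of the coding strand around the first cysteine pair of the protein-coding reference transcript (Cxcl1-201 and so on), taken from GENCODE M21, with the codons of the cysteine pair in capitals.
Cxcl1: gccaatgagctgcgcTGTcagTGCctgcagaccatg
Cxcl2: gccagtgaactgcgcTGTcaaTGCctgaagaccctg
Cxcl3: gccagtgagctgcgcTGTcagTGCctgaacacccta
Cxcl10: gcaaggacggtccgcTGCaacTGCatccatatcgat
Cxcl16: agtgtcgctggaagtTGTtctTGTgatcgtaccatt
Ccl2: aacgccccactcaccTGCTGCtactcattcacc
Ccl4: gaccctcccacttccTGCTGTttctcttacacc
Ccl5: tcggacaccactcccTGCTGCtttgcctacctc
Ccl6: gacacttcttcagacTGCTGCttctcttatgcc
All 5 CXC members have 1 codon between the capitals and the 4 CC members shown have none. Cxcl1, Cxcl2 and Cxcl3 also carry the glutamate-leucine-arginine codons directly before the first cysteine, the feature of CXC ligands that act on Cxcr2, and Cxcl10 and Cxcl16 do not. The coding parts run from 91 codons in Ccl5 to 246 in Cxcl16, the membrane-anchored ligand that proteases release from the cell surface.

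The levels of the 10 genes were very unequal, and a pair of them held nearly all of the sum. Ccl6 and Cxcl2 together took 92.1% of the members' summed TPM in replicate 1 and 91.0% in replicate 2, where the sums were 471 and 902 TPM. At or above 1 TPM in both libraries stood 7 of the 10 members, against 43.3% of the 22028 protein-coding genes. Since the members were chosen with earlier results known, this is a description and not a test. Mean levels were 336 ± 174 TPM for Ccl6, 291 ± 99.5 TPM for Cxcl2, 34.0 ± 13.1 TPM for Ccl3 and 11.6 ± 12.6 TPM for Ccl2 (SD, n = 2 libraries). The order of mean level was Ccl6, Cxcl2, Ccl3, Ccl2, Ccl4, Cxcl10, Cxcl16, Cxcl3, Cxcl1 and Ccl5. The ranges of the neighbours Ccl6 and Cxcl2, of Ccl2 and Ccl4, of Cxcl10 and Cxcl16, and of Cxcl16 and Cxcl3 overlapped across the libraries, so their order is not resolved.

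**Figure D1:**
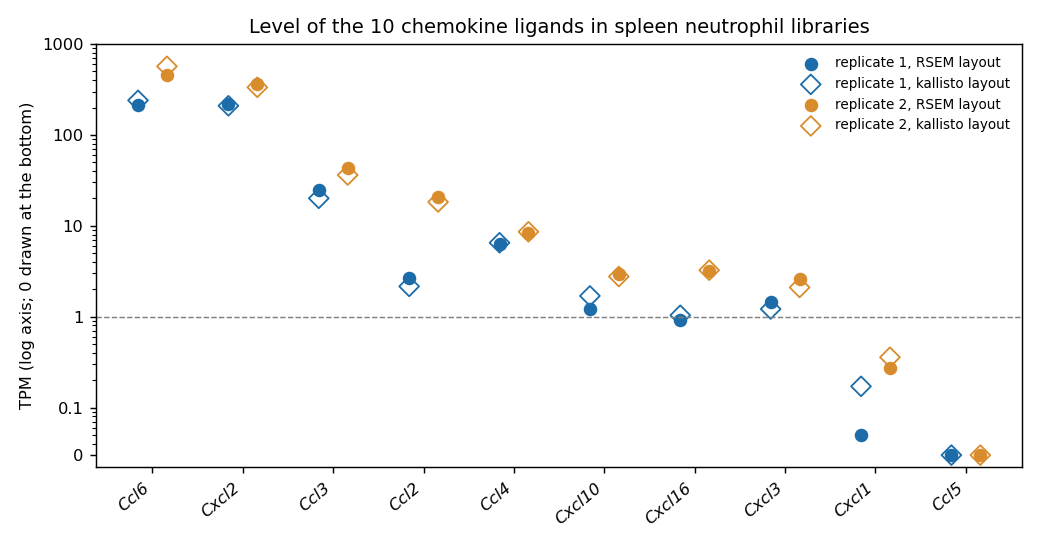
Level of each ligand in TPM on a log axis, with replicate 1 in blue left of replicate 2 in orange, filled circles for the RSEM layout and open diamonds for the kallisto layout; the dashed line marks 1 TPM. Ccl6 and Cxcl2 lie from 209 to 568 TPM, Cxcl1 lies below 1 TPM, and Ccl5 lies at 0.

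Among the ligands for Cxcr2, Cxcl2 (macrophage inflammatory protein 2) was the abundant one and its relatives were low. Cxcl2 (ENSMUSG00000058427.10, chromosome 5, 90903871 to 90905938, plus strand) had 221 TPM from 4807.6 expected counts in replicate 1 and 361 TPM from 6035.5 expected counts in replicate 2. Among protein-coding genes it lay at the 99.2 and 99.3 percentiles. Cxcl3 (ENSMUSG00000029379.10, chromosome 5, 90786103 to 90789600), a close relative of Cxcl2, had 1.45 TPM in replicate 1 and 2.59 TPM in replicate 2, from 39.4 and 56.5 expected counts. Cxcl2 therefore stood 152-fold above Cxcl3 in replicate 1 and 140-fold above it in replicate 2.

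Cxcl1 (ENSMUSG00000029380.11, chromosome 5, 90891241 to 90893115), a major neutrophil attractant of stromal cells and macrophages, had 1 expected count in replicate 1 and 5 in replicate 2. These are 0.050 and 0.27 TPM, and the exact Poisson 95% interval of the counts runs from 0.0253 to 5.57 in replicate 1 and from 1.62 to 11.7 in replicate 2. By kallisto it had 8 estimated counts in replicate 1 and 9 in replicate 2, or 0.171 and 0.358 TPM. All 8 of replicate 1 were given to the retained-intron transcript Cxcl1-202, and 8 lies outside the interval of the expected count. Cxcl1 lies 10.8 kb upstream of Cxcl2 on the same strand. Coding sequences of Cxcl2 and Cxcl3 share 89.7% of aligned bases, those of Cxcl2 and Cxcl1 78.8%, and those of Cxcl1 and Cxcl3 75.7%. Reads were divided between genes for Cxcl2 and Cxcl3, whose expected counts are not whole numbers, but the posterior SD of either count was 0.67 in replicate 1 and 0.77 in replicate 2.

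Of the CXC members without the glutamate-leucine-arginine codons, Cxcl10 (ENSMUSG00000034855.13, chromosome 5, 92346638 to 92348889, minus strand), an interferon-inducible ligand of Cxcr3, had 1.23 TPM from 31 counts in replicate 1 and 2.98 TPM from 54 counts in replicate 2. Cxcl16 (ENSMUSG00000018920.11, chromosome 11, 70453983 to 70459984, minus strand), the ligand of Cxcr6, had 0.92 TPM from 45 counts and 3.22 TPM from 128 counts, in the same order. It is the member that stands at or above 1 TPM in replicate 2 alone. Cxcl10 overlaps Art3 and Cxcl16 overlaps Zmynd15 on the opposite strand; whether reads were counted by strand is not given in the sources used here, and both partners stood below 0.3 TPM.

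Among the CC members, Ccl6 (ENSMUSG00000018927.3, chromosome 11, 83587882 to 83593087, minus strand), a rodent ligand of Ccr1 made by myeloid cells, had 213 TPM from 5141 counts in replicate 1 and 459 TPM from 9756 counts in replicate 2. These levels lay at the 99.1 and 99.5 percentiles of protein-coding genes. Ccl3 (ENSMUSG00000000982.5, chromosome 11, 83647844 to 83649355, minus strand), macrophage inflammatory protein 1 alpha and a ligand of Ccr1, had 24.8 TPM from 360 counts in replicate 1 and 43.3 TPM from 535 counts in replicate 2. Its relative Ccl4 (ENSMUSG00000018930.3, chromosome 11, 83662584 to 83664683, plus strand), macrophage inflammatory protein 1 beta, had 6.30 TPM from 77 counts and 8.27 TPM from 86 counts. Ccl3 stood 3.93-fold above Ccl4 in replicate 1 and 5.23-fold above it in replicate 2, and the coding parts of these neighbours share 69.6% of aligned bases.

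Ccl2 (ENSMUSG00000035385.5, chromosome 11, 82035571 to 82037453, plus strand), the monocyte attractant that acts through Ccr2, differed most between the libraries. It had 2.68 TPM from 44 counts in replicate 1, with an exact Poisson 95% interval of 32.0 to 59.1 counts, and 20.5 TPM from 272 counts in replicate 2, with an interval of 241 to 306 counts. Ccl5 (ENSMUSG00000035042.2, chromosome 11, 83525778 to 83530518, minus strand), a ligand made by T and NK cells, had 0 counts in both libraries, which allows up to 3 counts, or 0.275 TPM in replicate 1 and 0.323 TPM in replicate 2. These intervals and limits hold counting error alone, because no molecular identifiers are described and reads from copies of 1 molecule are not independent.

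Replicate 2 held more of the members than replicate 1 in the comparison of counts. This comparison asks how far the libraries agree on each ligand; it compares the reads of these libraries and not conditions, and its p-values hold counting error alone. Of the 8 members with at least 10 counts in both libraries together, 5 passed the exact binomial test at an adjusted p of 0.05, against 32.1% of the 15118 genes tested, and all 5 were higher in replicate 2, against 17.0% called in that direction and 15.0% called higher in replicate 1. All 8 ratios were below 0 on the log2 scale of replicate 1 over replicate 2. The median of the 8 was -0.66, against -0.0011 over all genes tested and -0.02 over the 12050 protein-coding genes tested.

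Ccl2 had the largest ratio, a log2 ratio of -2.60 (adjusted p = 4.05e-39, exact binomial test), and 0.754% of the genes tested lay at or below it. Cxcl16 followed at -1.48 (adjusted p = 2.98e-09, exact binomial test). These are the 2 members past a difference of at least 2-fold, against 2.86% of genes called higher in replicate 2 at that size. Ccl6 stood at -0.91 (adjusted p = 8.16e-304, exact binomial test), Ccl3 at -0.55 (adjusted p = 1.61e-07, exact binomial test) and Cxcl2 at -0.31 (adjusted p = 1.65e-27, exact binomial test). Ccl6 and Cxcl2 had the most counts of the members, so that a ratio as small as that of Cxcl2 was detectable. The ratio of Ccl6 was not small, since it lay below the median of the 8 tested members, -0.66. Cxcl10 at -0.77 (adjusted p = 0.0516, exact binomial test), Cxcl3 at -0.53 (adjusted p = 0.183, exact binomial test) and Ccl4 at -0.14 (adjusted p = 0.696, exact binomial test) were not called. Cxcl1 and Ccl5 had too few expected counts to test.

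**Figure D2:**
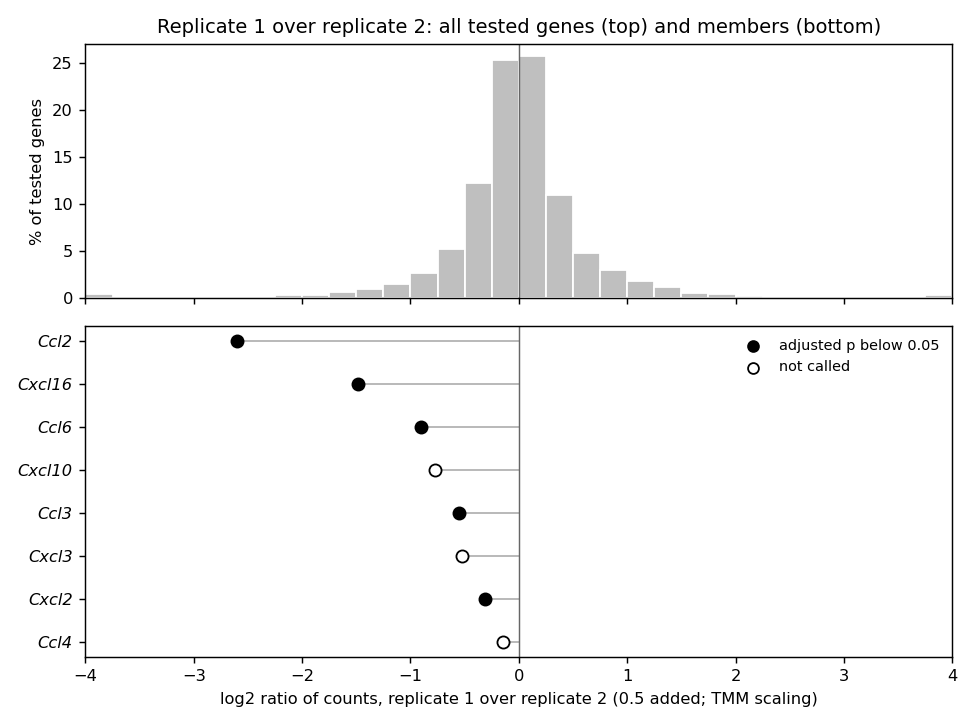
Log2 ratio of counts, replicate 1 over replicate 2, as the percent of all tested genes per bin (top; values beyond 4 in either direction are drawn in the end bins) and for the 8 tested members (bottom; filled circles have an adjusted p below 0.05). All 8 members lie left of 0, from -0.14 for Ccl4 to -2.60 for Ccl2, while the median of all tested genes is -0.0011.

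Scaling on ERCC spike-in counts shifts the median of all genes by -0.74 on the log2 scale. It calls all 8 tested members higher in replicate 2, but also 11163 of the 15118 genes tested. Of all calls with this scaling, 98.4% lie in that direction. Scaling on the protein-coding total shifts the median by 0.10 the other way. The share of all calls higher in replicate 2 is then 32.4%, against 53.1% with TMM, and the same number of members is called, 5. The ratios of all 8 tested members stayed below 0 under each of the 5 scalings used, TMM included.

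Markers of other cells moved between the libraries too. Of all genes tested, 17.0% were called higher in replicate 2 and 15.0% higher in replicate 1. Of the B cell markers, 5 of 6 were called higher in replicate 2, with sums of 6.11 and 21.1 TPM in replicates 1 and 2, and none stood at 0. Of 15 monocyte and macrophage markers 9 were tested, with 6 called higher in replicate 2 and 1 higher in replicate 1 (sums 152 and 214 TPM). The spleen macrophage genes C1qa, C1qb, C1qc, Marco, Spic and Ms4a7 each had fewer than 10 counts in both libraries together. Other genes of this list were well counted in replicates 1 and 2. Csf1r had 4006 and 4287 counts, Adgre1 430 and 445, Vcam1 480 and 496, and Mrc1 202 and 146. Dendritic cell markers were called higher in replicate 2 in 2 of the 5 tested of 7 (sums 27.0 and 47.7 TPM, Xcr1 at 0). Eosinophil markers were so called in 4 of the 6 tested of 8 (33.5 and 74.9 TPM). Erythroid markers were so called in 4 of 5 found (45.3 and 114 TPM). T cell markers were so called in 2 of the 4 tested of 8 (33.0 and 55.6 TPM). Cd3d alone held 31.8 and 53.3 TPM of the T cell sums. NK cell markers had none called of the 2 tested of 8, with sums of 11.0 and 8.79 TPM and Ncr1, Gzma and Eomes at 0. Nkg7 alone held 10.5 and 8.27 TPM of the NK cell sums. No T cell marker stood at 0 in both libraries. A link of these lists to the 0 counts of Ccl5 was not tested. Platelet markers were called higher in replicate 1 in 4 of 6 and higher in replicate 2 in 1 (18.1 and 14.1 TPM). Basophil and mast cell markers were called in 1 of 8 each way (279 and 273 TPM), and Hdc alone held 216 and 191 TPM of these sums. None of the 5 tested of 6 stromal markers was called (1.03 and 1.70 TPM). The neutrophil markers were called higher in replicate 2 in all 11. The part of these differences in the members' ratios was not tested, and in bulk samples fewer cells of a type and less RNA per cell cannot be told apart.

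Transcripts of the members were read in both transcript tables. Of the 8 members with a mean level of at least 1 TPM, 7 had the same leading transcript in both libraries by both quantifications, a protein-coding one in each, and Ccl3 and Ccl4 have a single annotated transcript. Gene levels of none of the 8 lay over 2-fold apart between the quantifications in both libraries, against 4.27% of the 10378 protein-coding genes compared.

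By TPM, the exception was Ccl6. Its protein-coding transcript Ccl6-201, with 4 exons, took 66.5% of the gene's TPM in replicate 1 and 71.9% in replicate 2 by RSEM, but 39.2% and 39.6% by kallisto. The retained-intron transcript Ccl6-202, with 3 exons, took 30.5% and 25.2% by RSEM and 58.3% and 58.2% by kallisto. Summed over its retained-intron transcripts, Ccl6 stood at 60.8% and 60.4% by kallisto, at the 94.2 and 94.9 percentiles of 4488 protein-coding genes with such transcripts, but at 33.5% and 28.1% by RSEM, at the 66.1 and 62.8 percentiles. The level of Ccl6-201 was 142 TPM in replicate 1 and 330 TPM in replicate 2 by RSEM, but 94.0 and 225 TPM by kallisto. By counts in place of TPM the number with a shared leading transcript is also 7. Ccl6-201 then leads by kallisto too, with 59.4% of counts in replicate 1 and 60.3% in replicate 2. Cxcl3 is the exception by counts, since Cxcl3-202 holds 64.7% of its kallisto counts in replicate 1. Cxcl3-202 is annotated as retained intron and is 1 exon of 3498 nt over the whole gene, so unspliced RNA was not told apart from it. A processed transcript on the opposite strand, E230016K23Rik, overlaps Ccl6 and stood at 1.97 TPM in replicate 1 and 2.11 TPM in replicate 2.

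Retained-intron transcripts of Cxcl2 took 16.6% of its TPM in replicate 1 and 29.3% in replicate 2 by RSEM, and 12.9% and 23.3% by kallisto. By TPM, the 397 nt transcript Cxcl2-204 held most of the gap, with 23.3 TPM in replicate 1 and 85.5 TPM in replicate 2 by RSEM and 15.9 and 50.7 TPM by kallisto. By RSEM counts it also moved most, from 3.14% to 7.81% of the gene, against 11.8% and 12.4% for retained-intron Cxcl2-203. By kallisto counts Cxcl2-203 moved most, from 11.0% to 17.7%, against 1.46% and 2.86% for Cxcl2-204. Protein-coding Cxcl2 had 184 TPM in replicate 1 and 256 TPM in replicate 2 by RSEM, and 182 and 256 TPM by kallisto. Cxcl16 had 34.8% and 35.0% of its TPM in a retained-intron transcript by RSEM, from 11.0 expected counts in replicate 1 and 32.7 in replicate 2. The median over protein-coding genes with such transcripts was 23.8% in replicate 1 and 21.2% in replicate 2 by RSEM. This median was taken over genes of at least 5 TPM, a level that Cxcl16 did not reach. No test was made of these shares.

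**Figure D3:**
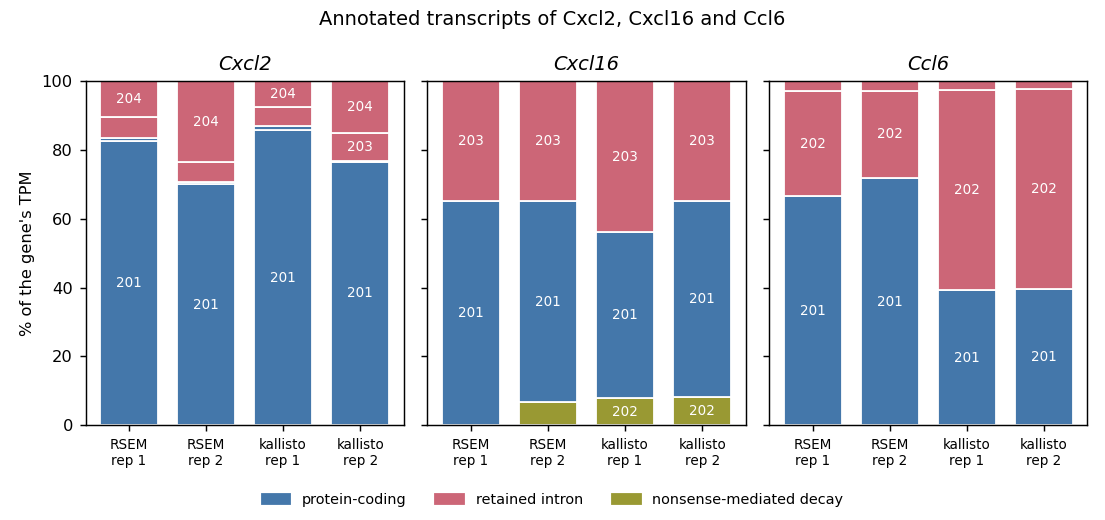
Percent of each gene's TPM in its annotated transcripts, by quantification and replicate, for Cxcl2, Cxcl16 and Ccl6; blue is protein-coding, red retained intron and olive nonsense-mediated decay, with transcript numbers in larger segments. Ccl6-202 holds 30.5% and 25.2% by RSEM and 58.3% and 58.2% by kallisto, while the protein-coding Cxcl2-201 leads in all 4 columns.

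Promoter windows of 250 bases before to 50 after the RefSeq start were available for 6 of the 10 members (RefSeq, GRCm38.p6), namely Cxcl1, Cxcl2, Cxcl3, Cxcl10, Ccl3 and Ccl6. A kappa B consensus, the binding motif of NF-kB, was present in 4 of the 6 on either strand, in the windows of Cxcl1, Cxcl2, Cxcl3 and Cxcl10, against 4.51% of 32851 promoters of the same length. Ccl3 and Ccl6 had no match, which says only that these letters are absent there. Its matches start 97 bases before the start of Cxcl2, 71 before that of Cxcl1 and 73 before that of Cxcl3, each with an overlapping match on the next base, and 159 and 103 bases before that of Cxcl10. Windows of Ccl6, chosen for the highest level, and of Cxcl2 and Cxcl1, chosen after their values were seen as neighbours that differ in level, are shown with the kappa B matches in capitals.
Ccl6 chr11:83593038-83593337 minus strand: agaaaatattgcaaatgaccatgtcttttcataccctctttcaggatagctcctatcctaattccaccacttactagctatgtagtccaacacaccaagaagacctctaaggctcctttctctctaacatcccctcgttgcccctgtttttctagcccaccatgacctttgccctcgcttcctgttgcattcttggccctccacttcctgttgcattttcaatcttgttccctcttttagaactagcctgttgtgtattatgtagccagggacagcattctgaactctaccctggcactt
Cxcl2 chr5:90903649-90903948 plus strand: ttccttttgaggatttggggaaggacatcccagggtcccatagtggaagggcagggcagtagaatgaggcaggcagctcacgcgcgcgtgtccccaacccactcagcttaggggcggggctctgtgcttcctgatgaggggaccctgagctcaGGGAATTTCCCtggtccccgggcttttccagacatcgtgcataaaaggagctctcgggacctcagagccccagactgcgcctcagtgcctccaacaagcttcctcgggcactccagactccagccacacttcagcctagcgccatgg
Cxcl1 chr5:90890995-90891294 plus strand: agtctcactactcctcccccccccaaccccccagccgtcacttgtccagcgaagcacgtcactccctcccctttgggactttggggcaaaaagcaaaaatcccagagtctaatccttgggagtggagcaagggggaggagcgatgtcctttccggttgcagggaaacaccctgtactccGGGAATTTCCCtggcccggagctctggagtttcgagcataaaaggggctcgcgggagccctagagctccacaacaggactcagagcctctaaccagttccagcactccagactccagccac
The capitals are the same letters in Cxcl2, at 221 TPM in replicate 1 and 361 TPM in replicate 2, and in Cxcl1, at 0.050 and 0.27 TPM. An AP-1 motif (TGANTCA, either strand, in 7.81% of promoters) was found 74 bases before the start of Cxcl10 alone. An interferon response element (GAAANNGAA, either strand, in 8.56% of promoters) was found 213 bases before the start of Cxcl10 and 39 before that of Ccl3. The C/EBP motif (TTGCNNAA, either strand, in 10.8% of promoters) was in none of the 6 windows, and a TATA box (TATAAA, given strand, in 8.32% of promoters) lay 30 bases before the start of Cxcl3. Such matches describe the letters and are not shown to be bound.

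Chemokine messages are often short-lived through AU-rich elements in their 3′ untranslated region, which bind decay factors such as the Zfp36 proteins. The pentamer ATTTA occurs at least once in 9 of the 10 members and at least 2 times in 8, against 43.9% of 20831 protein-coding genes with 2 or more. The nonamer TTATTTATT occurs in 3 members, Cxcl1, Cxcl2 and Cxcl3, against 7.06% of genes. Cxcl2 had 11 pentamers and Cxcl1 had 7, which is 15.0 and 11.8 per kb, against a median of 1.17 per kb over genes; Ccl6 had 4 and Ccl5 had none. The densest stretch of 30 bases is shown for Cxcl2, Cxcl1, Cxcl3 and Ccl3, a set chosen after values were seen, with pentamers in capitals.
Cxcl2: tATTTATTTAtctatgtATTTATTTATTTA
Cxcl1: gtcctATTTATTTAtgtATTTATTTAttcc
Cxcl3: gcatcttATTTAatgtttATTTAatatcaa
Ccl3: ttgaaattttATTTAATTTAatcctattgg
The abundant Cxcl2 and the nearly undetected Cxcl1 hold 5 and 4 of these pentamers in their windows.

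Members lie in clusters with other ligand genes, and levels of neighbours differed widely. On chromosome 5, Cxcl3, Cxcl1 and Cxcl2 lie with Cxcl5, Ppbp, Pf4 and Cxcl15. On chromosome 11, Ccl5, Ccl9, Ccl6, Ccl3 and Ccl4 follow each other among the ligand genes, with Ccl6 9.25 kb from Ccl9. Of the 28 other ligand genes, 4 stood at or above 1 TPM in both libraries and 14 had 0 counts in both. The 10 members held 93.1% of the summed TPM of all 38 ligands in replicate 1 and 92.7% in replicate 2. With the members chosen after earlier results were known, this share may in part follow from the choice. Ccl9, the neighbour of Ccl6 and a ligand of Ccr1, had 19.0 TPM from 973 counts in replicate 1 and 57.1 TPM from 1575 counts in replicate 2 (log2 ratio of counts -0.68, adjusted p = 6.27e-30, exact binomial test). Coding sequences of Ccl6 and Ccl9 share 70.7% of aligned bases, and Ccl6 stood 11.2-fold and 8.04-fold above it in TPM. The platelet ligands Pf4 and Ppbp went the other way, with 7.73 TPM in replicate 1 and 6.70 TPM in replicate 2 for Pf4 and 3.12 and 1.81 TPM for Ppbp, both called higher in replicate 1 on counts (log2 ratios 1.01 and 1.03). Ccl25, a ligand of the gut and thymus, had 3.35 and 4.02 TPM, and Cxcl12, the ligand of Cxcr4, had the largest ratio of the called ones at 1.36, with 64 and 25 counts.

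**Figure D4:**
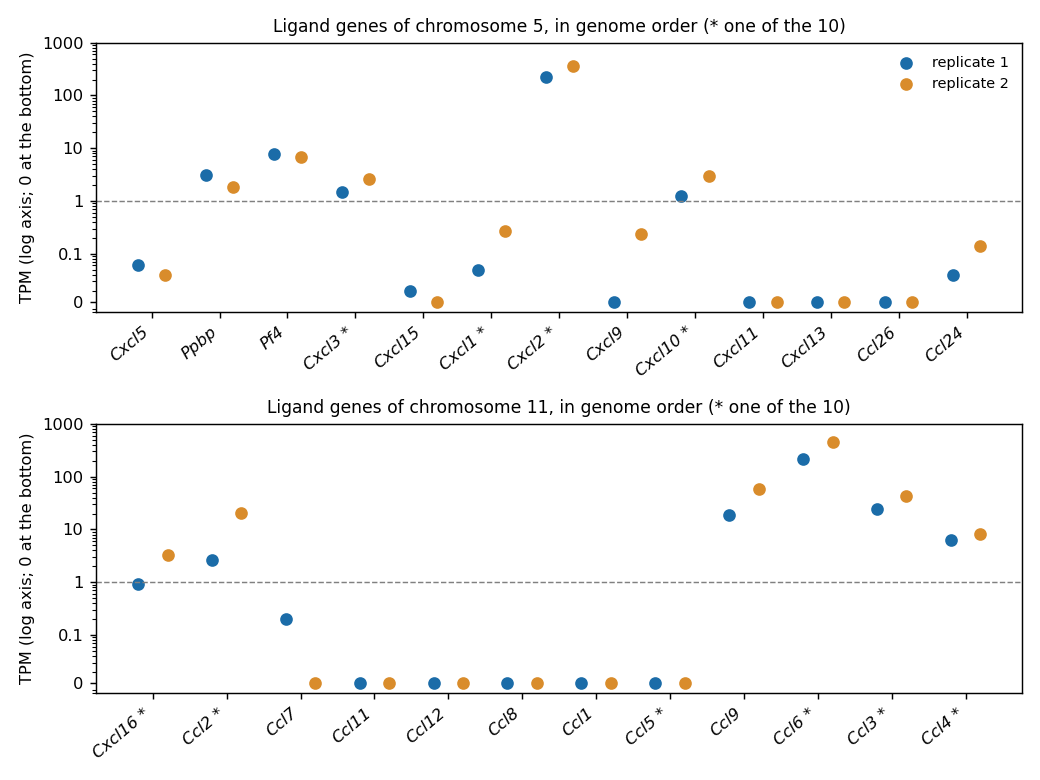
TPM on a log axis of the ligand genes of chromosome 5 (top) and chromosome 11 (bottom) in genome order, replicate 1 in blue and replicate 2 in orange, with members starred and the dashed line at 1 TPM. Cxcl2 at 221 and 361 TPM stands beside Cxcl1 at 0.050 and 0.27 TPM, and Ccl6 stands above both of its neighbours Ccl9 and Ccl3.

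Receptors for the members were present for part of the set. Cxcr4 was highest at 205 TPM in replicate 1 and 297 TPM in replicate 2. Next came Cxcr2, the receptor of Cxcl1 to Cxcl3, at 114 and 174 TPM and the atypical receptor Ccrl2 at 89.4 and 126 TPM. Of 11 tested receptors, 8 were called higher in replicate 2, against 17.0% of all genes tested. Ccr7 had the largest called ratio at -1.91. Among the members' own receptors, looked up after values were seen, Ccr1 had 88.4 and 114 TPM, Ccr2 32.9 and 47.1 TPM, Cxcr3 0.59 TPM in both, and Cxcr6, the receptor of Cxcl16, 0 counts in both.

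Gene groups linked to chemokine production and processing stood beside the members as follows, each as counts of called genes. These counts are to be read against the 17.0% of all genes tested called higher in replicate 2 and the 15.0% called higher in replicate 1. NF-kB subunits and regulators had 3 of 14 called higher in replicate 2 and 2 higher in replicate 1, with a median log2 ratio of 0.03. Its highest members were the inhibitor Nfkbia at 319 TPM in replicate 1 and 379 TPM in replicate 2, Tnfaip3 at 156 and 226 TPM and Nfkbiz at 157 and 189 TPM, and Bcl3 had the largest called ratio at -0.53. Decay factors had 4 of 9 called higher in replicate 2 and 1 higher in replicate 1, led by Zfp36 at 399 TPM in replicate 1 and 654 TPM in replicate 2, Zfp36l2 at 97.0 and 132 TPM and Zc3h12a at 82.4 and 85.2 TPM, with Zfp36l1 at the largest ratio, -0.91. Their median log2 ratio was -0.09.

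Inflammatory cytokines and mediators had 5 of 9 tested called higher in replicate 2 and 1 higher in replicate 1, with a median log2 ratio of -0.23. Il1b stood at 202 TPM in replicate 1 and 355 TPM in replicate 2, Nlrp3, an inflammasome sensor, at 194 and 230 TPM and Osm at 101 and 152 TPM, and Il6 had the largest called ratio at -0.86. Interferon-stimulated genes, the class to which Cxcl10 belongs, had 14 of 15 tested called higher in replicate 2 and a median log2 ratio of -0.95. Irf9 stood at 15.8 TPM in replicate 1 and 24.5 TPM in replicate 2 and Stat2 at 11.5 and 15.0 TPM, and Oas1a had the largest called ratio at -2.11. Cxcl10 at -0.77 lies near this median but was itself not called. Proteases known to cut or shed chemokines had 5 of 8 called higher in replicate 2, led by Mmp9 at 708 TPM in replicate 1 and 1167 TPM in replicate 2, Mmp8 at 366 and 571 TPM and, by mean level, Elane at 137 and 180 TPM, although Prtn3 stood above Elane in replicate 1 at 146 TPM. Dpp4, which trims chemokine N termini, had the largest ratio at -1.83, and Adam10, which sheds Cxcl16 and was looked up for that, had 19.2 and 29.4 TPM.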

How the data were processed

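Total RNA of 2 libraries of mouse spleen neutrophils was quantified by the authors against mm10 with GENCODE M21, per the files' accompanying notes; the aligner and program versions were not given in the sources used here. The deposited tables in RSEM layout hold expected counts, TPM, FPKM and the percent of a gene's TPM in each transcript, from transcriptome alignments. The deposited table in kallisto layout holds estimated counts and TPM made from the reads directly. Transcript percentages were recomputed from TPM.

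Expected counts were rounded, and an exact two-sided binomial test compared the libraries for each gene with 10 or more counts over both, with TMM effective sizes (edgeR 4.0.16) and Benjamini-Hochberg adjustment over all genes at 0.05. The log2 ratio sets replicate 1 over replicate 2, adding 0.5 to each count. With 1 library a side no quasi-likelihood fit was possible. The test was tried on simulated data. Quantifications were compared with 0.1 TPM added, as apart when over 2-fold the same way in both libraries, at a mean of 1 TPM or more by either. Retained-intron shares were set against genes of at least 5 TPM. Coding and 3′ regions are those of the first-numbered protein-coding transcript of each member, and elsewhere of the transcript with the longest coding part.

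The members and gene lists were chosen with earlier results of these data known. All 10 members are described; of other lists the 3 highest genes and the called gene of largest ratio are named, with other ligands at 1 TPM or more in both libraries, and marker lists are given as counts and sums. Alternatives were other scalings (DESeq2 1.42.0 size factors among them), filters, quantifiers, units and thresholds. A few genes and 1 sequence that these rules would name are not reported here.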

Additional observations from a re-analysis of the deposited data

How the results depend on the processing

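With at least 5 TPM in place of 1 TPM in both libraries, 4 members and 2 other ligands passed, against 7 and 4. Requiring at least 2-fold as well left 2 members called, against 5. ERCC scaling called 8 members, but also 11350 of the 15118 genes tested. All members called under the scalings, filters, added count and quantifier tried were higher in replicate 2. Of 64 ratios of single members under alternatives, 59 kept direction and side of the threshold, and 5 passed it only there: Cxcl10 with total counts (-0.81, adjusted p = 0.0397, exact binomial test), Cxcl10 with a minimum of 50 counts (adjusted p = 0.0446, exact binomial test), and Cxcl3, Cxcl10 and Ccl4 with ERCC scaling. None reversed. Levels over protein-coding genes alone were higher for the 9 detected members. Leaving out each library in turn gave 7 to 8 members and 4 to 5 other ligands at or above 1 TPM, 0 members apart between quantifications and 7 with the same leading transcript. No paired analysis was possible because there is 1 group, so no groups share replicate numbers. Depth limits Cxcl1 and Ccl5 most, which had too few expected counts to test.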
